A study of Mus musculus with 24 samples.

Results

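Open chromatin of granulocyte-monocyte progenitors (GMPs) was compared between mice with and without Daxx. Of the 24 ATAC-seq libraries of the series, the 4 titled as Daxx +/+ GMP or Daxx F/F GMP were used, 2 per genotype, and the remaining 20 came from CMPs, LT-HSCs and KLS cells, the last also from mice with both Daxx F/F and Pu.1 F/F beside Cre +/- (DKO). The Daxx-WT mice were Daxx +/+ Cre +/- and the Daxx-KO mice Daxx F/F Cre +/-, both on the C57BL/6 strain. Both genotypes therefore carried the inducible Cre, which is expressed from the Rosa26 locus in all tissues and not in blood cells alone. Per the study's methods, tamoxifen activates this Cre and removes Daxx exons 2 to 7, and marrow of femur and tibia was taken 3 weeks later. The labels of the GMP libraries give neither a time, an age nor a sex, and the study used mice of both sexes. The KLS cells used for comparison differ in the Cre as well. The Pu.1 F/F mice were crossed to Daxx F/F mice with Mx1Cre, which is induced by pI:pC and acts in blood cells, and the methods name Mx1Cre for KLS cells of this time in the RNA-seq of the study. For the ATAC-seq of KLS cells no Cre line is named. GMPs were sorted as lineage-negative, c-Kit+, Sca-1-, CD16/32+ and CD34+ cells. The authors deposited 1 peak list per genotype, made from both libraries together. The lists hold positions alone, so they carry no spread between mice, no peak height and no read depth. No test between genotypes was possible, and every number below describes these 2 lists. Binomial (Wilson) 95% intervals are given for some shares. They cover counting error alone, and neighbouring peaks are not independent.

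GMPs arise from CMPs and give rise to neutrophils and monocytes. Pu.1 (encoded by Spi1) and C/EBPα (Cebpa) open and maintain the enhancers of both fates. C/EBPε and Gfi1 act in the granulocyte branch, and Irf8 and Klf4 in the monocyte branch. Daxx deposits the replacement histone H3.3 together with Atrx at repeats and other heterochromatin, and H3.3 also marks active promoters and enhancers. ATAC-seq reads chromatin that the Tn5 transposase can enter, and a peak is a stretch where insertions pile up.

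The Daxx-WT list held 65306 peaks covering 45.4 Mb, and the Daxx-KO list 49677 peaks covering 35.3 Mb. A peak was called shared when it overlapped a peak of the other list by at least 1 bp. By this rule 17996 Daxx-WT peaks had no Daxx-KO peak, 27.6% of that list, and 2260 Daxx-KO peaks had no Daxx-WT peak, 4.55% of that list. The Daxx-KO list was thus the shorter and lay almost wholly inside the Daxx-WT list. Daxx-WT peaks covered 92.5% of the bases in Daxx-KO peaks, and Daxx-KO peaks covered 71.9% of the bases in Daxx-WT peaks. Few of the 1-sided peaks were near misses. Only 1186 of the Daxx-WT-only peaks (6.59%) and 213 of the Daxx-KO-only peaks (9.42%) had a peak of the other list within 500 bp. List length weighs on both counts. With the Daxx-WT list reduced to its 49677 widest peaks, 9413 (18.9%) were Daxx-WT only and 9183 (18.5%) of the Daxx-KO peaks were Daxx-KO only. Lists of equal length give nearly equal counts by construction, so this pair of numbers has no direction.

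The regions of most interest for this cell type are those beside granulocyte and monocyte genes that carry a binding motif of Pu.1 or C/EBP. The widest such peaks of each kind are printed here to show what a region present in 1 genotype alone looks like. Each sequence is the 200 bases around the centre of a peak, on the plus strand of mm10, read from the GRCm38 RefSeq genome. Capitals mark matches on either strand to the Pu.1 motif (GAGGAAGT) or the C/EBP motif (TTGCNNAA). In the Daxx-WT list alone, 47 peaks at these genes held a match and could be printed, and the 5 widest are named by the nearest protein-coding start site.
Zeb2, chr2:45109768-45109967: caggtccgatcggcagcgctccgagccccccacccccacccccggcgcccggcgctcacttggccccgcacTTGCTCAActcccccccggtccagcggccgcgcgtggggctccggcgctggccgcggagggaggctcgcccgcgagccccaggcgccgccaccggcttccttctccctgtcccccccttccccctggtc
Mgst2, chr3:51728111-51728310: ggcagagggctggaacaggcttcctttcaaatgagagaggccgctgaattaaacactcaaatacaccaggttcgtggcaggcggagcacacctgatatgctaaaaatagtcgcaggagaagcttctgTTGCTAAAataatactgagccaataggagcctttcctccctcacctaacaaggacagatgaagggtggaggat
Ets1, chr9:33483243-33483442: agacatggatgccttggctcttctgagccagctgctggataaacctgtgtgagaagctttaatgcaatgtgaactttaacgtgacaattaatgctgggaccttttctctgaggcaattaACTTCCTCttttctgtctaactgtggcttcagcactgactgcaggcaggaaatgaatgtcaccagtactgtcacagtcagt
Egr2, chr10:67489962-67490161: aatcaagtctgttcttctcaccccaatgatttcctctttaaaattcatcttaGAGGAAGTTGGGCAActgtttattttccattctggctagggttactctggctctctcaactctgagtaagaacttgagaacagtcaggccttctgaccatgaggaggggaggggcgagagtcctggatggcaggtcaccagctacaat
Mrc1, chr2:14262227-14262426: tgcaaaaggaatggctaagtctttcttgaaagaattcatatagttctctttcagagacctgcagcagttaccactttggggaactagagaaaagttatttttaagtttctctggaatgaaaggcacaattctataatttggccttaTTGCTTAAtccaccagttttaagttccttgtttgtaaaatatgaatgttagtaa

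These 5 Daxx-WT-only peaks were 1360, 1065, 853, 821 and 817 bp wide. The Zeb2 region lay at a start site of Zeb2, a repressor used in monocyte and dendritic cell fates, and held a C/EBP match. The Mgst2 window lay 46.6 kb from the Mgst2 start site, in an intron. The region given to Ets1 lay 787.0 kb from that start site, in an intron of another annotated gene, so the name says only which protein-coding start site is nearest. In the window 45.4 kb from Egr2, an early-response factor of the monocyte branch, a Pu.1 and a C/EBP match overlapped. The region of Mrc1, the macrophage mannose receptor, lay 32.9 kb from the Mrc1 start site given, at a start site of another annotated transcript. The Zeb2 and Mgst2 regions were peaks in 7 of the 9 lists from other cells or times, and the Egr2 and Mrc1 regions in 1 alone, that of Daxx-WT CMPs.

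In the Daxx-KO list alone, 8 peaks at these genes held a match and could be printed, and 4 of the widest are shown for the same reason.
Etv6, chr6:134262241-134262440: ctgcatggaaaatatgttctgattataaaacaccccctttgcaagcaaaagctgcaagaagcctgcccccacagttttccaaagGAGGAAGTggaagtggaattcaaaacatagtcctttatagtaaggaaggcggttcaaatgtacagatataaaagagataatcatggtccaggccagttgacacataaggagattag
Cst7, chr2:150549702-150549901: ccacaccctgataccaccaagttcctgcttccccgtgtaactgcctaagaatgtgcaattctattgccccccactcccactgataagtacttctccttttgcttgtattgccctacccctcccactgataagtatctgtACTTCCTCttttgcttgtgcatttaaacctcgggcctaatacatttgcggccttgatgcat
Etv6, chr6:134173408-134173607: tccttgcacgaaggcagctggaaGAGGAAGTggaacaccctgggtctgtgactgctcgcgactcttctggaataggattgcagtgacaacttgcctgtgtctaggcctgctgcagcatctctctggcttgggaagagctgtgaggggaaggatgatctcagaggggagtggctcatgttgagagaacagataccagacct
Ly86, chr13:37337928-37338127: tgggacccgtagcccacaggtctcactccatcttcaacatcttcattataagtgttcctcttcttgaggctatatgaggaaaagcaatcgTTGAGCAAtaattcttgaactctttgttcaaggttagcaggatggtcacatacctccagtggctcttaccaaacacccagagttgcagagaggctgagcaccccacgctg

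These Daxx-KO-only peaks were 722, 461, 406 and 387 bp wide. They are the widest of 8 and the Daxx-WT-only ones the widest of 47, so the widths of these picked peaks do not compare the classes. Over all peaks of each class the median width was 427 bp for Daxx-KO-only and 433 bp for Daxx-WT-only peaks. Both Etv6 regions, beside a repressor of the Ets family needed by blood stem cells, and the region near Cst7, which encodes the cathepsin inhibitor cystatin F, held a Pu.1 match. The Ly86 region, near a partner of the receptor Cd180, held a C/EBP match. The narrower Etv6 region was a peak in 0 of the 9 other lists and the wider one in 1, that of Daxx-WT CMPs.

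The targeted gene was examined first. Daxx lies at chr17:33909414-33915590 (mm10), with 8 exons in its longest transcript. The Daxx-WT list had a peak of 1926 bp over the start site and exon 1, and the Daxx-KO list one of 1592 bp. Both lists had a second peak just downstream of the gene, of 829 bp in Daxx-WT and 843 bp in Daxx-KO cells. Exons 2 to 7 held no peak in either list, so the lists do not show the deletion itself. Within 100 kb of the Daxx start site, 21 of 22 Daxx-WT peaks were shared and 0 of 21 Daxx-KO peaks were Daxx-KO only.

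The cell type label was checked against marker genes. All 12 GMP markers, among them Mpo, Elane, Prtn3, Ctsg, Ms4a3, Cebpa, Cd34, Kit and Fcgr3, had a peak within 1000 bp of a start site in both lists. Of 20 genes of unrelated tissues, 3 had one in the Daxx-WT list and 3 in the Daxx-KO list. Among markers of cells that a GMP gate could also hold, the numbers with a start site peak in Daxx-WT and in Daxx-KO cells were 17 and 16 of 20 for stem cells. They were 15 and 15 of 20 for erythroid cells and megakaryocytes. For lymphoid cells they were 11 and 10 of 20, for dendritic cells 10 and 9 of 14, and for eosinophils, basophils and mast cells 5 and 3 of 14. The erythroid genes Slc4a1, Alas2 and Car1 and the lymphoid genes Rag1, Rag2 and Cd79a had no start site peak in either list. An open start site in a progenitor does not show expression. Fewer cells of a type and less accessible DNA per cell cannot be told apart in such sorted bulk samples.

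The peaks missing from Daxx-KO GMPs were mainly distal. A peak was called distal when it lay over 1000 bp from every start site annotated in GENCODE M21. Of 45659 distal Daxx-WT peaks, 15286 (33.5%) had no Daxx-KO peak, against 2710 of 19647 (13.8%) at start sites. In the Daxx-KO list, 1818 of 32339 distal peaks (5.62%) and 442 of 17338 start site peaks (2.55%) had no Daxx-WT peak. The share changed at the start site itself and little beyond it. Of Daxx-WT peaks that covered a start site, 7.81% were Daxx-WT only. This was 32.4% for peaks that ended within 1000 bp of a start site without covering it, 32.8% from 1 to 5 kb, 32.8% from 5 to 20 kb, and 37.7% from 50 to 100 kb. Daxx-KO-only shares went from 1.89% at covered start sites to 9.41% from 50 to 100 kb.

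**Figure D1:**
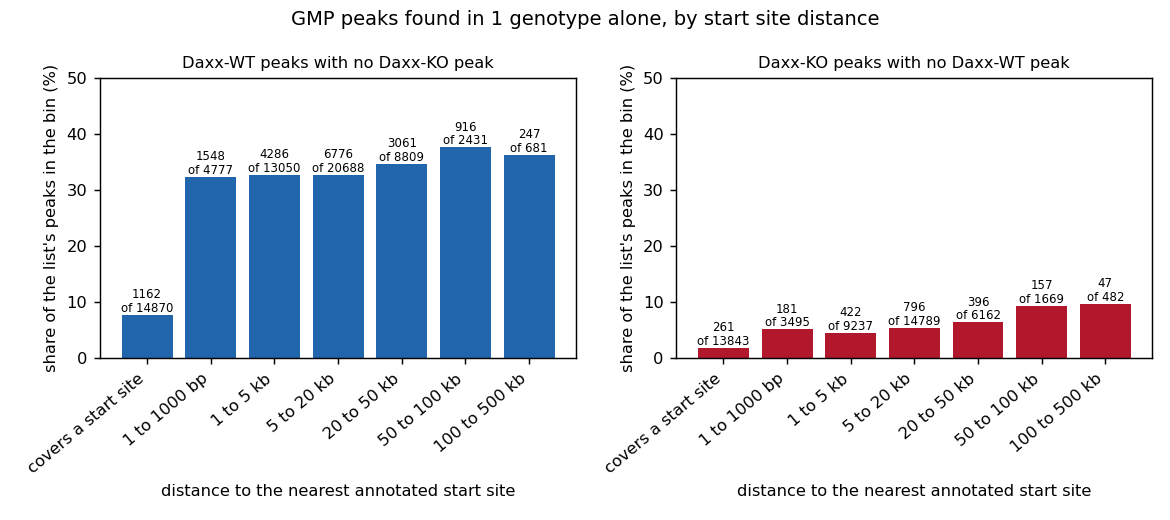
Share of GMP peaks absent from the other genotype's list (y axis, %) by distance to the nearest start site (x axis), for Daxx-WT peaks on the left and Daxx-KO peaks on the right, with the number of peaks on each bar. The lowest bar in both panels is that of peaks covering a start site, 7.81% and 1.89%.

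By annotation, 42.5% of the Daxx-WT-only peaks lay in introns, 34.2% between genes, 8.19% at exons and 15.1% at start sites. The Daxx-KO-only peaks were spread over 36.2%, 37.3%, 6.86% and 19.6% of the same places. Shared Daxx-WT peaks were at start sites in 35.8% and in introns in 29.2% of cases. The peaks of both 1-sided classes were thus placed more like each other than like the shared peaks.

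Peaks found in 1 genotype alone were narrow. The median width was 433 bp for Daxx-WT-only peaks and 693 bp for shared peaks in the Daxx-WT list. In the Daxx-KO list it was 427 bp for Daxx-KO-only and 643 bp for shared peaks. Among distal peaks alone the medians were 423 and 597 bp in the Daxx-WT list and 405 and 547 bp in the Daxx-KO list. When the Daxx-WT peaks were put in 10 bins of about equal number by width, the share without a Daxx-KO peak was lower in each wider bin. For distal peaks it went from 67.3% in the narrowest bin (200 to 327 bp) to 10.5% in the widest (1189 to 3595 bp). For start site peaks it went from 58.6% to 3.60%. In each bin the distal share was the higher. The Daxx-KO-only share of distal peaks likewise went from 13.8% to 1.18%. Peaks at covered start sites were also the widest, with a median of 1032 bp in the Daxx-WT list against 508 bp at 1 to 5 kb.

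**Figure D2:**
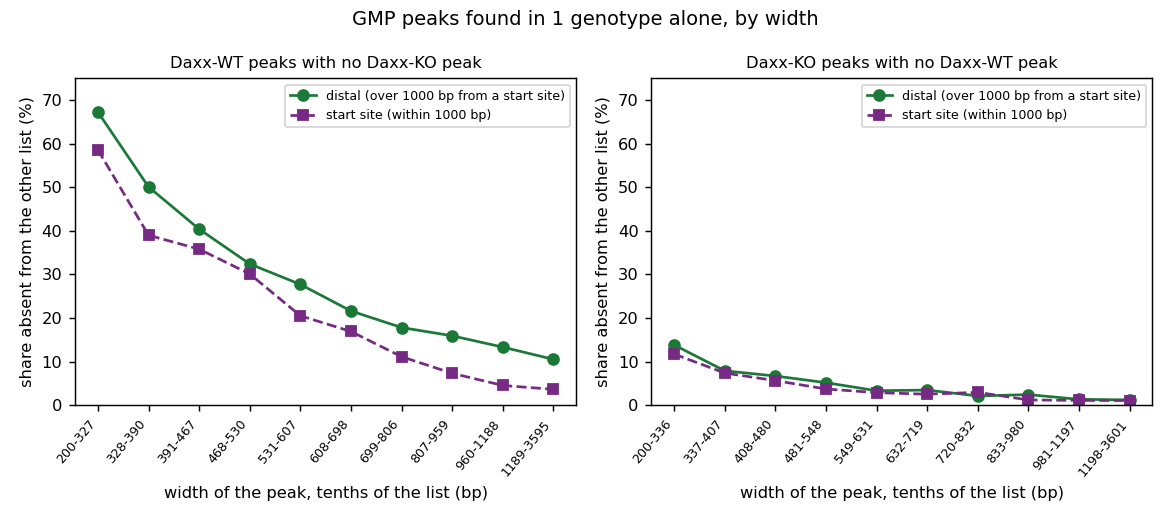
Share of GMP peaks absent from the other list (y axis, %) in 10 bins of each list by peak width (x axis, bp), for distal peaks (circles) and start site peaks (squares). The Daxx-WT-only share of distal peaks goes from 67.3% to 10.5%, and the Daxx-KO-only share from 13.8% to 1.18%.

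Shared regions also differed in width. Of 46802 peaks that matched 1 to 1 between the lists, 32780 were wider in Daxx-WT, 13603 were wider in Daxx-KO and 419 were equal. The median width was 694 bp in Daxx-WT and 644 bp in Daxx-KO cells, and the median difference was 29.0 bp. Of the distal ones 68.9% and of those at start sites 72.1% were wider in Daxx-WT, by a median of 28.0 and 30.0 bp. How the number of reads behind each list bears on peak width and number was not tested, since the lists give no depth.

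The widest 1-sided peaks were all at start sites. In the Daxx-WT list alone these were at Plppr3 (2214 bp), the actin nucleator Fmn2 (2188 bp), Fjx1 (2180 bp), the zinc finger gene Glis2 (2173 bp) and Tmem121b (2132 bp). In the Daxx-KO list alone they were at Rbpms2 (2356 bp), the Wnt receptor gene Fzd8 (2306 bp), the zinc finger gene Zic5 (2079 bp), the glypican gene Gpc6 (1868 bp) and the kinase gene Wnk2 (1818 bp). Their GC content was 59.1% to 72.4%. All 10 were peaks in at least 3 of the other 9 lists.

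Start sites of myeloid genes were compared next. Over all 21938 protein-coding genes, 13072 had a peak within 1000 bp of a start site in both lists and 7967 in neither. A further 724 had one in Daxx-WT alone, 5.25% of the 13796 with a Daxx-WT start site peak, and 175 in Daxx-KO alone, 1.32% of the 13247 with a Daxx-KO one. The list named for primary granules, the protease stores that neutrophil precursors build first, also holds genes of other roles, such as Calr, Mgst2 and Rab32. Mgst2 had 15 of its 75 Daxx-WT peaks. All 15 genes of the primary granule list had a start site peak in both genotypes. At Mpo (myeloperoxidase) it was 964 bp wide in Daxx-WT and 971 bp in Daxx-KO cells. At Elane (neutrophil elastase) it was 361 and 342 bp, at Prtn3 (proteinase 3) 543 and 549 bp, and at Ctsg (cathepsin G) 768 and 699 bp. At these named genes the start site peaks were thus of close to the same width in both genotypes. Other genes of the list differed more. At Mgst2, 3 start site peaks came to 2758 bp in Daxx-WT cells and 1 to 584 bp in Daxx-KO cells. The 1 Daxx-WT-only peak nearest Mgst2 was distal, so no start site peak nearest this gene was Daxx-WT only. These totals thus depend on which peaks fell within 1000 bp of a start site. At Cst7 the widths were 1070 and 815 bp. At Srgn the Daxx-KO peak was the wider, at 650 against 600 bp.

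Of 20 genes of later neutrophil stages, 12 had a start site peak in both lists, 7 in neither, and Ltf (lactoferrin) in Daxx-WT alone (645 bp, the nearest Daxx-KO peak 1551 bp away). The 7 without one included Ly6g, the neutrophil surface marker, Cxcr2 and Retnlg. S100a8 had a start site peak of 925 bp in Daxx-WT and 921 bp in Daxx-KO cells, and S100a9 one of 515 and 505 bp.

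Of 20 genes expressed in monocytes and macrophages, 16 had a start site peak in both lists and 4 in Daxx-WT alone, with 0 in Daxx-KO alone. The 4 were Ccr2, the chemokine receptor of inflammatory monocytes, Cybb, the gp91 subunit of the NADPH oxidase, Ctss (cathepsin S) and Mpeg1 (perforin-2). At Ccr2 the Daxx-WT list had a peak of 503 bp over the start site, and the nearest Daxx-KO peak lay 1014 bp away, just past the limit of 1000 bp, over a shared region whose Daxx-WT peak ended 996 bp away. At Ctss a Daxx-WT peak of 341 bp covered the start site, and the nearest Daxx-KO peak was 2.60 kb away. At Mpeg1 a Daxx-WT peak of 366 bp lay 129 bp from the start site, and the nearest Daxx-KO peak was 2.79 kb away. At Cybb, on chromosome X, 2 peaks of 306 and 359 bp were found in Daxx-WT alone. The Daxx-WT peaks at these 4 start sites were all narrow, 306 to 585 bp. By contrast the start site peak of Cx3cr1, a receptor of patrolling monocytes, was 1102 bp wide in Daxx-WT and 967 bp in Daxx-KO cells. The regulators of both branches had start site peaks in both lists wherever they had one, which was 14 of 15 granulocyte regulators and 14 of 15 monocyte regulators.

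Outside these lists, the genes with a start site peak in Daxx-WT alone were the stem cell regulator Prdm16, the B cell receptor subunit Cd79b, the lymphoid factor Ikzf3, eosinophil peroxidase (Epx), mast cell carboxypeptidase (Cpa3), the dendritic cell receptor Xcr1, the cytokine gene Csf2 and E-cadherin (Cdh1). Those in Daxx-KO alone included the neutrophil chemokine Cxcl1 (1055 bp, over the start site) and Sox1 (664 bp). The Cxcl1 start site was 6.05 kb from the nearest Daxx-WT peak. At Xcr1 the Daxx-WT peak was a shared one whose edge lay 950 bp from the start site. Over the 302 listed genes found in the annotation, 13 had a start site peak in Daxx-WT alone and 3 in Daxx-KO alone. A further 224 had one in both lists and 62 in neither. Over all protein-coding genes, 5.25% of those with a Daxx-WT start site peak had it in Daxx-WT alone. Of those with a Daxx-KO one, 1.32% had it in Daxx-KO alone.

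Peaks were then assigned to the protein-coding gene with the nearest start site. The 5 granulocyte and monocyte lists together had 716 Daxx-WT peaks, of which 180 (25.1%, 22.1% to 28.4%) had no Daxx-KO peak, near the 27.6% of all Daxx-WT peaks. They had 558 Daxx-KO peaks, of which 22 (3.94%) had no Daxx-WT peak, near the 4.55% of all Daxx-KO peaks. The shares were 25.3% for the primary granule list, 23.8% for late neutrophil genes and 25.1% for granulocyte regulators. They were 24.6% for monocyte regulators and 26.5% for monocyte genes. For monocyte regulators the share was 16.0% when only peaks within 50 kb of the start site were taken. Among distal peaks alone, 160 of the 563 at these lists (28.4%, 24.8% to 32.3%) were Daxx-WT only, below the 33.5% of all distal Daxx-WT peaks. The share over all peaks of the 5 lists was also lower under other rules of assignment, 20.8% with the nearest start site of any gene and 21.9% with peaks within 50 kb. As 1 set, the myeloid lists thus had a share near or below that of the whole list, and below it among distal peaks.

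Of the other lists, 28.9% of peaks at myeloid cytokine and growth factor receptors, 22.9% at cell cycle genes and 31.7% at housekeeping genes were Daxx-WT only. Interferon-stimulated genes had the lowest share, 8 of 71 peaks (11.3%, 5.82% to 20.7%). Start site peaks made up 35 of the 71, against 30.1% of the whole Daxx-WT list. Of these 2 (5.71%) were Daxx-WT only, against 13.8% of all start site peaks. Among distal peaks the count was 6 of 36 (16.7%), against 33.5% of all distal Daxx-WT peaks. The 8 peaks lay 1 each at Ifit1, Oas3, Irf9, Rsad2, Usp18, Ifih1, Ifi204 and Zbp1. All peaks at Ddx58, which encodes RIG-I (7), Mx1 (3) and Gbp2 (4) were shared. The median width at this list was 654 bp, against 607 bp over the Daxx-WT list. The highest shares were at genes of unrelated tissues, 17 of 36 peaks (47.2%, 32.0% to 63.0%), at genes of eosinophils, basophils and mast cells, 16 of 39 (41.0%, 27.1% to 56.6%), and at stem cell genes, 42 of 119 (35.3%, 27.3% to 44.2%). The Daxx-KO-only share, 4.55% over all Daxx-KO peaks, was 10.5% at stem cell genes (9 of 86, 5.60% to 18.7%). It was 9.09% at lymphoid genes (5 of 55), 9.09% at genes of unrelated tissues (2 of 22) and 8.20% at the primary granule list (5 of 61). The 27.6% of all Daxx-WT peaks lay inside the interval of each list except interferon-stimulated genes and genes of unrelated tissues.

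**Figure D3:**
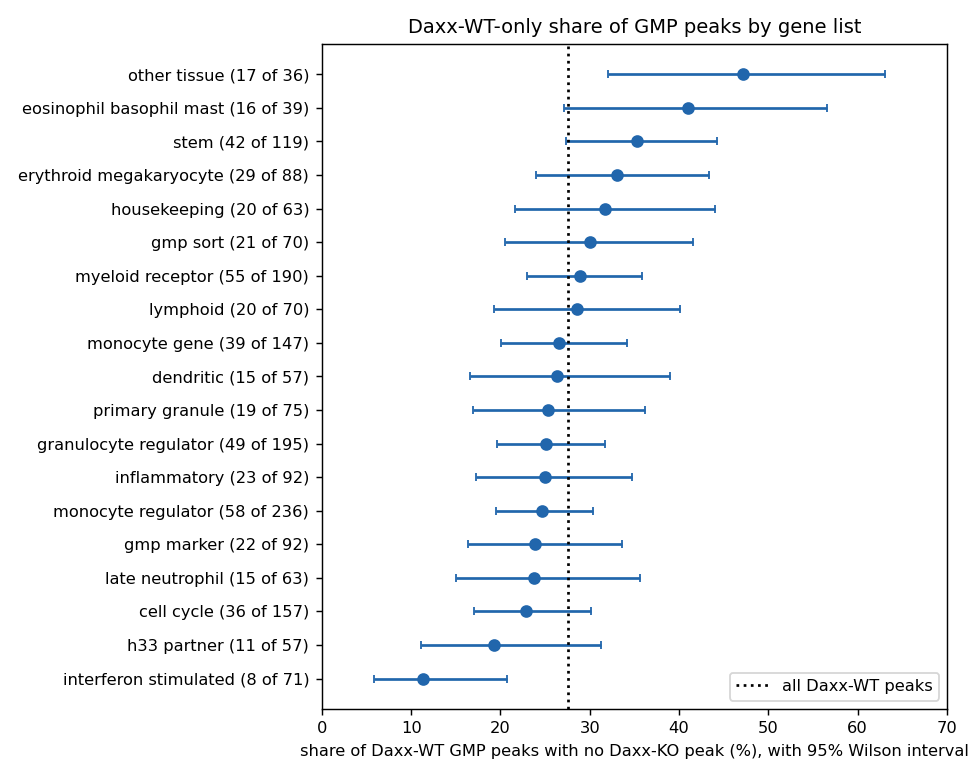
Share of Daxx-WT GMP peaks without a Daxx-KO peak (x axis, %) for each gene list (y axis, with Daxx-WT-only and all Daxx-WT peaks), with 95% Wilson intervals that cover counting error alone. The dotted line is the 27.6% of all Daxx-WT peaks. Interferon-stimulated genes are at 11.3% and genes of unrelated tissues at 47.2%.

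Single loci ranged widely. Over all peaks, 27.6% of the Daxx-WT list and 4.55% of the Daxx-KO list were 1-sided. In the primary granule list, Ctsc, which encodes cathepsin C, the activator of the granule proteases, had the most Daxx-WT-only peaks, 12 of 18, so 12 of the 19 in that list lay at this gene. Within 100 kb of its start site the Daxx-WT list had 13 peaks, 8 of them Daxx-WT only, and the Daxx-KO list 6, with 1 Daxx-KO only. The start site peaks were shared, at 541 bp in Daxx-WT against 466 bp in Daxx-KO cells, and 845 against 864 bp. Upstream, at -70.8 to -33.3 kb, there were 6 peaks of 315 to 845 bp in Daxx-WT and none in Daxx-KO cells. The Daxx-KO-only peak at -27.7 to -27.3 kb (358 bp) stood beside a shared peak of 1015 bp. The genes of the primary granule list with Daxx-KO-only peaks were Cst7 (2), Ctsg, Ctsc and Mgst2 (1 each).

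At Ly6g, which had the most Daxx-WT-only peaks of the late neutrophil list (3 of 5), the Daxx-WT list had 15 peaks within 100 kb and the Daxx-KO list 8. Against 27.6% of all Daxx-WT peaks, 8 of these 15 were Daxx-WT only. One of them, 457 bp at -2.10 to -1.65 kb, held a Pu.1 match. Padi4, which citrullinates histones in neutrophils, was the gene of this list with a Daxx-KO-only peak.

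Among granulocyte regulators Runx1 had the most, 10 of 38 peaks, followed by Etv6 with 9 of 35. These are shares near the 27.6% of all Daxx-WT peaks, at genes with many peaks. The genes of this list with Daxx-KO-only peaks were Runx1 (2), Etv6 (2) and Lef1 (1). Among monocyte regulators Zeb2 had the most, 13 of 30, and Klf4 had 10 of 31. At the start sites of Zeb2 the Daxx-WT list had 4 peaks of 2602 bp in all and the Daxx-KO list 2 of 933 bp. Genes of this list with Daxx-KO-only peaks included Tcf4 (2) and Klf4, Csf1r, Zeb2 and Maf (1 each). Among monocyte genes Ly86 had the most by number, 6 of 32, which is a smaller share than over all Daxx-WT peaks. Ly86, Ccr2, F13a1 (factor XIII) and Adgre1 (F4/80) had 1 Daxx-KO-only peak each.

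The promoter peaks of Cebpa and Irf8 were shared. At Cebpa the promoter peak was 1704 bp in Daxx-WT and 1724 bp in Daxx-KO cells. The peak at 37.0 to 38.0 kb, in the stretch known for an enhancer used by myeloid progenitors, was 1045 and 777 bp. Of 23 Daxx-WT peaks within 100 kb of Cebpa, 4 were Daxx-WT only, at -78.3, -19.7, 25.8 and 65.9 kb. The share over all Daxx-WT peaks was 27.6%. At Irf8 the promoter peak was 1091 and 1066 bp, and the peak at 56.1 to 57.3 kb, in the known far downstream enhancer region, 1189 and 1197 bp. Of the 20 Daxx-WT peaks within 100 kb of Irf8, 7 were Daxx-WT only, among them 1 of 1049 bp at 70.7 to 71.7 kb and 1 of 541 bp at 4.51 to 5.05 kb with a C/EBP match. The promoter and the named enhancer region of both genes were thus peaks in both genotypes. Other regions within 100 kb, up to 1000 and 1049 bp wide, were peaks in Daxx-WT alone. Near Cebpa, the one of 1000 bp at 65.9 kb and the one at -78.3 kb were start site peaks nearest Slc7a10 and Pepd. By nearest start site, 2 of 9 Daxx-WT peaks at Cebpa and 5 of 12 at Irf8 were Daxx-WT only.

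At Spi1, distances are from the outermost annotated start site. A peak of 933 bp at 0.333 to 1.26 kb, which does not cover that start site, was 919 bp in Daxx-KO cells. One of 1115 bp at 14.0 to 15.1 kb, at a further start site, was 1040 bp. Which start site is used in GMPs was not examined, so neither peak is called the promoter here. Of 19 peaks within 100 kb, 5 were Daxx-WT only. One of these (641 bp at 6.70 to 7.34 kb) lay in an intron, between the outermost start site and the further one. Those of 609 bp at 30.9 kb and 312 bp at 32.7 kb lay at exons within the annotated gene, nearest to the start site of Mybpc3. At Gfi1, 5 of 14 peaks were Daxx-WT only, including one of 423 bp just upstream of the promoter peak and one of 956 bp at 19.4 to 20.3 kb. The promoter peak was 1183 bp in Daxx-WT and 1206 bp in Daxx-KO cells. Within 100 kb of Cebpe 8 of 24 peaks were Daxx-WT only, of Mpo 9 of 25 and of Csf3r, the receptor of G-CSF, 4 of 20. For Elane the count was 4 of 30 and for Csf1r, the receptor of M-CSF, 4 of 19. These windows hold many peaks nearest to other genes. By nearest start site the counts were 1 of 5 at Mpo, 0 of 2 at Elane, 1 of 5 at Cebpe and 1 of 7 at Csf1r. They were 4 of 10 at Csf3r, 3 of 11 at Gfi1 and 1 of 8 at Spi1. The counts of this paragraph stand against 27.6% of all Daxx-WT peaks. The widest Daxx-WT-only peak of the list, at Plppr3, was 1 of the 4 near Elane, at -21.8 to -19.6 kb. Cebpa, Cebpe, Irf8, Spi1, Gfi1, Mpo and Csf3r had 0 Daxx-KO-only peaks within 100 kb, and Csf1r, Elane and Klf4 had 1 each. Of all Daxx-KO peaks, 4.55% were Daxx-KO only.

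**Figure D4:**
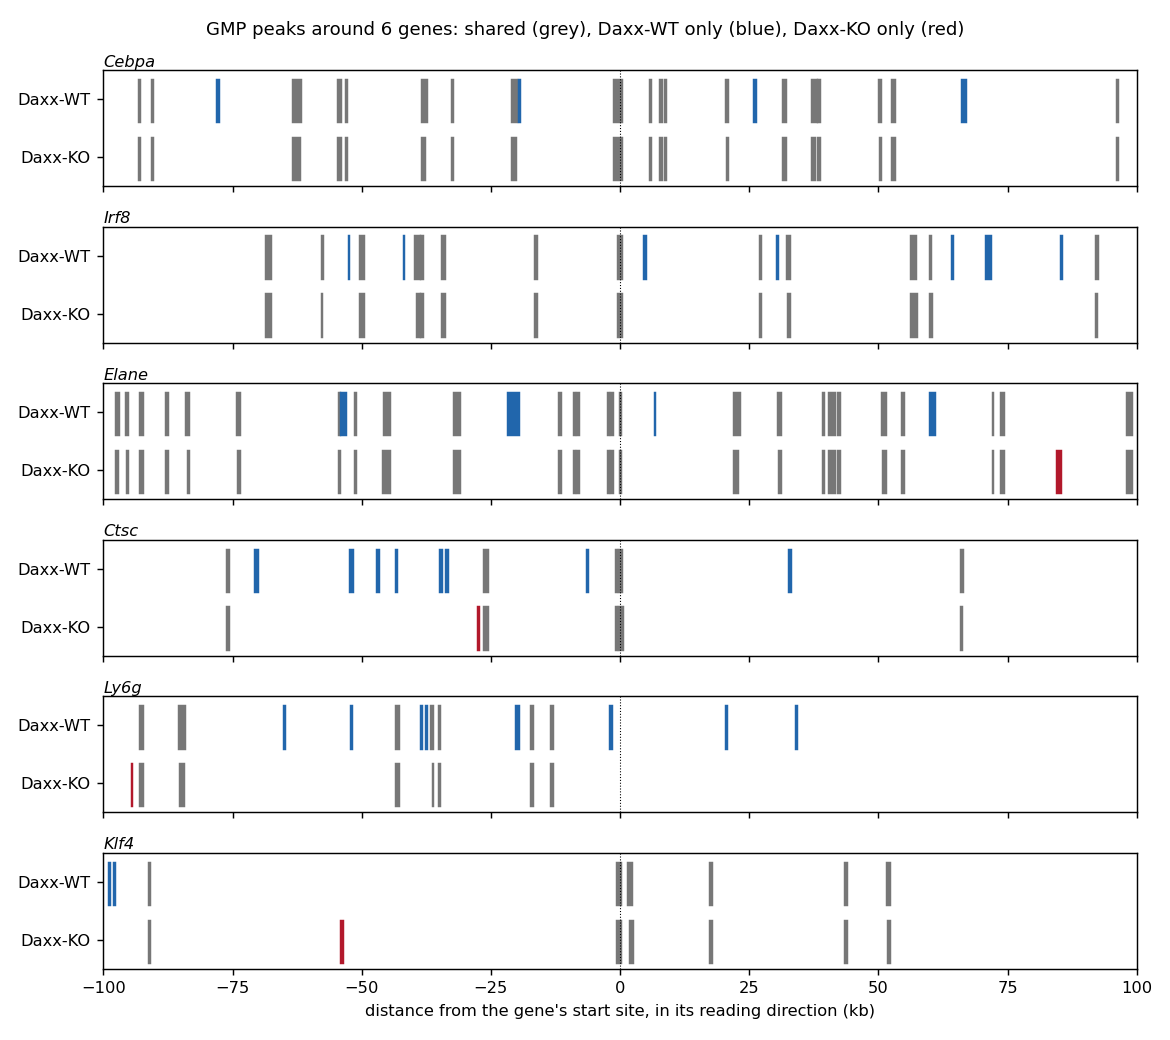
GMP peaks within 100 kb of 6 genes, plotted by distance from the start site in the reading direction of the gene (x axis, kb), with the Daxx-WT list above and the Daxx-KO list below in each panel. Grey peaks are shared, blue ones Daxx-WT only and red ones Daxx-KO only. Upstream of Ctsc 6 peaks in a row are blue, while the main peaks of Cebpa and Irf8 are grey.

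Over the whole genome, Daxx-WT-only peaks were spread widely. They were nearest to 8601 of the 15970 protein-coding genes with any Daxx-WT peak, and Daxx-KO-only peaks to 1935 of 15274. Against 27.6% of all Daxx-WT peaks, the gene with the most was Zfp386 with 25 of 70. It lies beside the immunoglobulin heavy chain variable (Ighv) genes, whose start sites were not among those used for the assignment. Over those 185 Ighv genes (chr12:113572927-116010093) the Daxx-WT list had 75 peaks and the Daxx-KO list 55, and 24 (32.0%) were Daxx-WT only. Next came Cited2 (24 of 45), a CBP/p300-binding factor needed by stem cells, Pde4d (20 of 76), Tbl1xr1 (19 of 43), Adgrl2 (18 of 52), and with 16 each Elmo1, Foxp1, Irs2, Jarid2 and Prdm1. Prdm1 encodes Blimp-1, a repressor used in plasma cell and macrophage fates, and 16 of its 32 peaks were Daxx-WT only. Asap1, Lmo4, Pde7b and Rapgef2 had 15 each and Gse1 had 14, a count that 6 genes shared.

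Daxx-KO-only peaks were scattered. The transcription factor gene Zfhx3 had the most, 5 of 29, and at the same gene 9 of 33 Daxx-WT peaks were Daxx-WT only. Over the whole lists these shares were 4.55% and 27.6%. The genes with 4 were 1700018B08Rik, Chd6, Gm4846, Pard3, Serp2 and Wnt5b. A count of 3 was shared by 31 genes, of which Ank2, Apbb2 and Apoh stand first in the alphabet. At Gm4846 the Daxx-KO list had 5 peaks against 1 in the Daxx-WT list, and at 1700018B08Rik 6 against 2.

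By chromosome, the Daxx-WT-only share was 24.7% to 30.9% over the 19 autosomes and 35.7% (473 of 1326, 33.1% to 38.3%) on X. The difference lay in distal peaks. On X 397 of 827 distal peaks (48.0%, 44.6% to 51.4%) were Daxx-WT only, against 30.9% to 36.4% on the autosomes, and 15.2% of its start site peaks. The Daxx-KO list held 67.2 peaks per 100 Daxx-WT peaks on X and 76.2 on the autosomes. Daxx-KO-only peaks were 3.93% of the X peaks of their list and 4.55% of those on autosomes. In bins of 1 Mb with at least 20 Daxx-WT peaks, 1254 in all, the Daxx-WT-only share was 3.12% to 59.1% with a median of 27.3%. The sex of the mice behind each library is unknown, and its part in the shares on X was not tested. Chromosome Y held 20 Daxx-WT and 21 Daxx-KO peaks. In CMPs the Daxx-WT-only share on X was 32.1%, against 28.4% on autosomes, and in LT-HSCs 10.2% against 6.70%. The Daxx-KO-only share was higher on X as well, 8.21% against 6.21% in CMPs and 17.5% against 13.8% in LT-HSCs. Per 100 Daxx-WT peaks the Daxx-KO list held 74.3 on X and 76.6 on autosomes in CMPs. In LT-HSCs it held 107.7 and 107.6. The median width of distal X peaks was 485 bp, against 535 bp for all distal Daxx-WT peaks.

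Motifs were compared among distal peaks, since start sites have another base composition. The motifs were searched on both strands within 100 bp of the peak centre. The Pu.1 motif was in 9.63% of Daxx-WT-only (9.17% to 10.1%), 9.55% of shared (9.22% to 9.88%) and 10.1% of Daxx-KO-only distal peaks (8.82% to 11.6%). The C/EBP motif was in 14.9%, 14.2% and 13.8%. The AP-1 motif (TGANTCA) was in 9.07%, 9.42% and 9.30%, and the CTCF motif in 4.94%, 5.50% and 5.50%. Among distal peaks the motifs of the 2 factors that direct myeloid enhancers were thus held at about the same rate by each class, near the 9.60% and 14.4% of all distal peaks of both lists. Over all peaks, start sites included, the Pu.1 motif was in 9.10% of Daxx-WT-only, 7.45% of shared and 9.25% of Daxx-KO-only peaks, and the C/EBP motif in 14.2%, 11.4% and 12.4%.

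The widest differences among distal peaks were for 3 other motifs. The RUNX motif (TGTGGTT) was in 11.8% of Daxx-KO-only peaks (10.4% to 13.3%), 9.50% of shared (9.17% to 9.83%) and 9.09% of Daxx-WT-only peaks. The GATA motif (AGATAA) was in 9.03% of Daxx-WT-only (8.58% to 9.49%), 7.65% of shared (7.35% to 7.95%) and 8.03% of Daxx-KO-only peaks. The Pu.1-IRF composite motif (GGAANNGAA), which shares its first letters with the core of the Pu.1 motif, was in 10.8% of Daxx-WT-only (10.3% to 11.3%) and 8.09% of Daxx-KO-only peaks (6.92% to 9.43%), and the interval of shared peaks was 9.66% to 10.3%. The Ets motif (CCGGAAGT), which ends in the same letters as the Pu.1 motif, was in 0.445%, 0.579% and 0.605%. For comparison, windows of the same length at 32851 RefSeq promoters held the Pu.1 motif in 2.4%, C/EBP in 6.78%, AP-1 in 5.35%, GATA in 6.92%, RUNX in 3.51%, Pu.1-IRF in 5.49%, Ets in 3.41% and CTCF in 0.454%. When the whole peak was searched, shared peaks, which are wider, had the highest share for all 8 motifs. A match is a run of letters and not a measure of binding.

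Base composition differed more at start sites than at distal regions. The median GC content of start site peaks was 51.4% for Daxx-WT-only, 58.2% for shared and 57.0% for Daxx-KO-only peaks. The ratio of observed to expected CpG was 0.285, 0.644 and 0.487. The start site peaks found in Daxx-WT alone were thus the poorest in CpG. Among distal peaks the medians of GC were 47.0%, 48.7% and 49.2%, and repeats made up a median of 12.6%, 11.4% and 11.7% of the peak.

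To see whether a 1-sided GMP region was open elsewhere, each class was looked up in the 9 lists of other cells, which came from other libraries. The lists from CMPs and LT-HSCs without a time label, 4 in all, hold positions alone like those of GMPs. Peaks of these LT-HSC lists were wider, with medians of 889 bp (Daxx-WT) and 916 bp (Daxx-KO). In CMPs the medians were 651 and 661 bp, and in GMPs 607 and 631 bp. How peak width bears on the shares found was not tested. Per the study's methods, CMP and GMP libraries also had a further run of single reads, and LT-HSCs were enriched for c-Kit before sorting. The other 5 are lists of reproducible peaks from LT-HSCs at 3 d.p.i. and KLS cells at 3 w.p.i., including KLS cells without Daxx and Pu.1 (DKO). Shared GMP peaks were found in Daxx-WT CMPs in 91.8% of cases and in Daxx-KO CMPs in 80.5%. Of Daxx-WT-only GMP peaks, 53.7% were found in Daxx-WT CMPs and 29.5% in Daxx-KO CMPs. Of Daxx-KO-only GMP peaks, 67.5% were found in Daxx-WT CMPs and 48.5% in Daxx-KO CMPs. Both 1-sided classes were thus found more often in the Daxx-WT than in the Daxx-KO CMP list, which hold 66070 and 50590 peaks.

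In LT-HSCs the order of the genotypes was the other way round, as was the order of list length, with 65455 peaks in Daxx-WT and 70455 in Daxx-KO cells. Daxx-WT-only GMP peaks were found in 43.3% of cases in the Daxx-WT and in 46.6% in the Daxx-KO LT-HSC list. For Daxx-KO-only GMP peaks the shares were 54.0% and 60.3%. The region missing from the Daxx-KO GMP list was thus a peak of Daxx-KO LT-HSCs in 8379 of 17996 cases. Of the Daxx-WT-only GMP peaks, 33.4% were in both the LT-HSC and CMP lists of Daxx-WT mice, 20.3% in CMPs but not LT-HSCs, 9.81% in LT-HSCs but not CMPs, and 36.5% in neither.

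**Figure D5:**
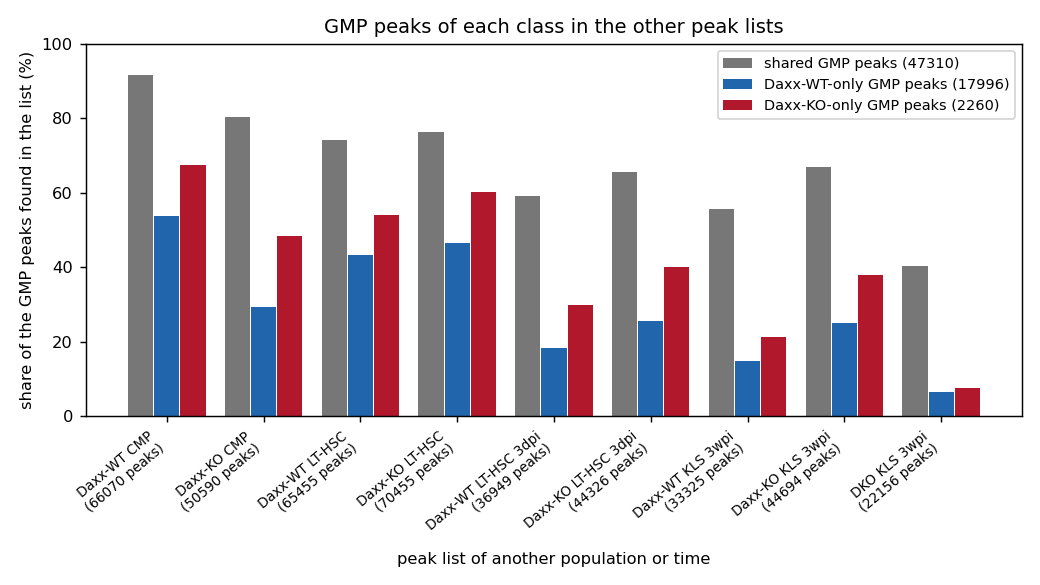
Share of shared, Daxx-WT-only and Daxx-KO-only GMP peaks (y axis, %) found in each list of another population or time (x axis, with the number of peaks in that list). In all 9 lists the shared peaks are found most often and the Daxx-WT-only peaks least often.

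The Daxx-WT-only peaks were the class found least often in each of the 9 lists, also among distal peaks. Of them 5495 (30.5%) were in no other list, against 368 (16.3%) of the Daxx-KO-only and 2139 (4.52%) of the shared peaks. These 5495 had a median width of 393 bp. In the KLS lists the authors gave a fold enrichment for each peak. Where a Daxx-WT-only GMP region was a peak of Daxx-WT KLS cells, its median fold enrichment there was 4.74, against 6.06 for shared regions and 4.92 for Daxx-KO-only ones. In Daxx-KO KLS cells the values were 5.35, 6.97 and 5.67. In DKO KLS cells 6.46% of Daxx-WT-only, 7.74% of Daxx-KO-only and 40.3% of shared GMP peaks were found.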

How the data were processed

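ATAC-seq used Tn5 tagmentation of sorted GMPs, 2 libraries per genotype. Per the labels, the submitters' processing notes name CASAVA 1.8.4, cutadapt 1.13, STAR 2.5.3, bedtools and mm10. The peak caller and its threshold are not given in the sources used here. The authors deposited the GMP, CMP and LT-HSC lists as positions alone, without a score. In the 5 lists of reproducible peaks the authors deposited a fold enrichment per peak, a ratio of signal to background, which was used only as its median, and repeated intervals were counted once with their highest value. The 3 deposited tables of the authors' own comparisons were not used.

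Peaks on 21 chromosomes were overlapped and given to the nearest start site of GENCODE M21 in Python 3.11.15 with numpy 2.4.6, pandas 2.3.3 and SciPy 1.17.1. These steps and the motif search were checked against brute force on simulated data. Chromosome names and all peak ends fitted the GRCm38 sequence. The depth behind the lists is unknown, so how precise a count is cannot be given beyond binomial counting error. Alternatives tried were the overlap rule, list length, width, the start site rule, the motif window and distal peaks alone.

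The gene lists, the members and the comparisons were chosen with earlier results of these data known. Named were listed genes with a start site peak in 1 list alone, the genes with the most 1-sided peaks (15 and 10 genome-wide, and the top gene of each granulocyte or monocyte list), all genes of those lists with a Daxx-KO-only peak, the 5 widest peaks of each kind, for printed sequences the 5 widest motif-holding peaks of those lists outside chromosome 18, and a set of known regulators. Of 303 listed genes, 302 matched the annotation as protein coding. Other genes named beside a list were picked after their values were seen. The results of a few genes that the rule would name are not reported here.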

Additional observations from a re-analysis of the deposited data

Results flagged for a closer look

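The change in list length differed in direction between cell populations. In GMPs the Daxx-KO list held 76.1 peaks per 100 of the Daxx-WT list, and in LT-HSCs without a time label it held 107.6. Each value rests on 1 list per genotype, and the difference was not tested. Per the study's methods, GMP libraries also had a further run of single reads and LT-HSCs a c-Kit enrichment. Cell preparation and sequencing thus differed together with the population.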

How the results depend on the processing

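The lists hold positions alone and pool both libraries, so a stricter threshold and leaving out a replicate could not be run. No paired analysis was possible because there is 1 list per genotype and no value per library. The Daxx-WT-only share of 27.6% was 28.7% when 50% of the peak had to be covered, 29.6% when this was asked of both peaks, 25.7% with peaks within 500 bp counted as shared and 26.6% with peaks of at least 300 bp. The Daxx-KO-only share of 4.55% was 4.90%, 7.51% (3732 peaks) and 4.12% under the first 3 of these. With lists of equal length the counts were 9413 (18.9%) and 9183 (18.5%). The distal Daxx-WT-only share was 33% with protein-coding start sites alone, and the start site share 11.8%, or 17.9% with a limit of 2500 bp. Median widths among distal peaks were 423.0 (Daxx-WT only), 597.0 (shared, Daxx-WT list), 405.0 (Daxx-KO only) and 547.0 bp (shared, Daxx-KO list).

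With the nearest start site of any gene, the Daxx-WT-only share was 17.9% for granulocyte regulators, 17.0% for monocyte regulators and 20.8% for the 5 lists together. Within 50 kb it was 16.0% for monocyte regulators and 21.9% for the 5 lists. The values of the other gene lists moved by less than their counting intervals under these choices and among distal peaks.

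Motif differences from shared peaks, in percentage points, depended most on the choice. Among distal peaks the Daxx-WT-only difference was 0.0818 (Pu.1), 0.729 (C/EBP), -0.346 (AP-1), 1.38 (GATA), -0.405 (RUNX), 0.759 (Pu.1-IRF), -0.135 (Ets) and -0.562 (CTCF). For AP-1, RUNX and CTCF this is the opposite sign to that over all peaks (1.31, 1.25 and 0.573). The Daxx-KO-only difference was 0.573 (Pu.1), -0.416 (C/EBP), -0.124 (AP-1), -1.91 (Pu.1-IRF) and 0.0256 (Ets). Over the whole peak the Daxx-WT-only differences were -1.50 (Pu.1), -4.58 (C/EBP), -4.07 (AP-1), -2.57 (GATA), -3.22 (RUNX), -4.62 (Pu.1-IRF), -3.12 (Ets) and -0.783 (CTCF). The Daxx-KO-only ones were -1.97, -7.89, -4.79, -5.99, -0.289, -7.58, -3.26 and -0.584 in the same order. Windows of 50 bp to each side gave 1.98 (C/EBP), 0.910 (GATA), 1.20 (Pu.1-IRF) and -0.472 (Ets) for Daxx-WT only, and -0.285 (Ets) for Daxx-KO only. The cause was not tested.

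Distal GMP peaks were found less often in other cells. For Daxx-WT-only peaks the shares were 28.2% in Daxx-KO CMPs, 52.5% in Daxx-WT CMPs, 43.5% in Daxx-KO LT-HSCs and 40.3% in Daxx-WT LT-HSCs. For shared peaks they were 74.2%, 89.1%, 67.4% and 64.4% in the same order, and for Daxx-KO-only peaks 55.9% and 49.6% in the LT-HSC lists. With 50% of the GMP peak covered, shared peaks were found in 79.1%, 91.0%, 75.6% and 73.2%. The order of the 3 classes held in each of the 9 lists among distal peaks.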

Other observations

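A list of 16 genes tied to H3.3 and silent chromatin had a start site peak in both GMP lists for each gene. It holds Daxx, Atrx, Hira and other chaperones, the H3.3 genes, the nuclear body genes Pml and Sp100, and the silencing genes Setdb1, Trim28, Dnmt1, Dnmt3a, Dnmt3b and Uhrf1. Of the 57 Daxx-WT peaks at this list 11 (19.3%, 11.1% to 31.3%) were Daxx-WT only, and 1 of its 48 Daxx-KO peaks was Daxx-KO only. The values in this paragraph stand against 27.6% of all Daxx-WT and 4.55% of all Daxx-KO peaks. Inflammatory cytokines and chemokines had 23 of 92 peaks (25%) in Daxx-WT alone and 4 of 73 in Daxx-KO alone. The Daxx-WT-only share was 33% (29 of 88) at erythroid and megakaryocyte genes, 28.6% (20 of 70) at lymphoid genes and 26.3% (15 of 57) at dendritic cell genes. Dendritic cell genes had 0 of 41, and eosinophil, basophil and mast cell genes 0 of 23 Daxx-KO-only peaks, with intervals of 0 to 8.57% and 0 to 14.3% that hold the 4.55%. The 6 genes of the GMP gate itself had 21 of 70 peaks (30.0%) in Daxx-WT alone, 8 of them at Ptprc (CD45) and 6 at Kit, and the GMP markers 22 of 92 (23.9%).

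Peaks of at least 1 kb were seldom 1-sided. Of 11645 in the Daxx-WT list 704 (6.05%) were Daxx-WT only, and of 9371 in the Daxx-KO list 103 were Daxx-KO only.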
